A study of Mus musculus with 12 samples.

Results

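The 48 genes described here act in DNA replication and cell division. They were taken by symbol, and a gene counted as measured when a probe set was annotated to its symbol alone. Of several such probe sets the one with the highest mean over all 12 arrays was used. On this rule 46 of the 48 were measured, out of 22180 genes in all. Ccnb1 had no probe set found under its symbol, and Ccne2 lay only on a probe set shared with another symbol, so neither is analysed here. The 46 genes fall by role into 12 genes of replication licensing and the replicative helicase, 3 of the DNA polymerases and their clamp, 4 of nucleotide supply, 3 regulators of the G1/S transition, 1 DNA repair gene (Brca1) and 23 mitosis genes.

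RNA came from spleens of female C57BL/6 mice aged 10 weeks, hybridized to 12 Affymetrix Mouse Gene 2.0 ST arrays, 1 per mouse. The 4 groups of 3 mice were LPS challenged ficolin KO, naive ficolin KO, LPS challenged WT and naive WT mice. Ficolin KO mice lack both ficolin-A (Fcna) and ficolin-B (Fcnb) in all cells, and both genotypes were bred as homozygous lines from heterozygous crosses. LPS, the endotoxin of gram-negative bacteria, was injected intraperitoneally at 10 mg/kg, and spleens were taken after 6 h. Naive mice were untreated, so LPS and the injection itself cannot be told apart. Fcna had log2 intensities of 3.98 to 4.85 in the 6 ficolin KO and 7.92 to 9.38 in the 6 WT spleens. The deletion of Fcnb was not checked.

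Values are log2 intensities of the arrays, and 1 unit is a doubling. Genes were compared with limma on all 12 arrays, with p-values adjusted over the 22180 genes. The study's criteria for differentially expressed genes were kept. For LPS challenge these are an adjusted p under 0.05 and more than a 2-fold difference, and for genotype an unadjusted p under 0.05 and more than a 1.5-fold difference. Because most fold-changes here were under 2, genes that passed adjusted p under 0.05 at any fold-change are also given, and "rose" and "fell" refer to these.

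Before a cell can copy its DNA, the origin recognition complex, Cdc6 and Cdt1 load rings of Mcm2 to Mcm7 onto chromatin in G1, a step called licensing. At the G1/S transition cyclin-dependent kinases and E2F transcription factors switch on the genes of DNA synthesis, while a later wave of genes for chromosome condensation, the spindle and cytokinesis is expressed in G2 and M. In mouse spleen, dividing cells include B cell blasts, myeloid progenitors and the erythroblasts of the red pulp, since the mouse spleen makes red cells throughout life.

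After LPS challenge the 46 genes passed no more often than genes at large, and those that rose lay among the replication genes. By the criteria 0 of the 46 genes were called in ficolin KO mice, where 8.63% of all genes were (4.22% higher and 4.41% lower), and 1, Cdt1, in WT mice, where 8.99% were (4.05% higher and 4.94% lower). At adjusted p under 0.05, 8 of the 46 passed in ficolin KO mice, where 27.7% of all genes did, and 5 in WT mice, where 30.1% did. In ficolin KO mice 7 of them rose and 1 fell, and of all genes 12.9% rose and 14.9% fell. In WT mice 5 rose and 0 fell, and of all genes 13.4% rose and 16.7% fell. Cdt1, Mcm3, Mcm6 and Tyms, 4 of the 46, rose in both genotypes, as did 10.6% of all genes, so the share of the 46 was not above that of all genes. All rises were among the 19 genes of licensing, polymerases and nucleotide supply, and the 1 gene that fell, Kif23, was a mitosis gene. Of the 46 genes, 8 in ficolin KO mice had every LPS challenged array above every naive array (18.8% of all genes) and 0 every one below (20.9%). In WT mice 8 were above (19.4%) and 1, Kif23, below (21.3%), shares that were again not above those of all genes. A drop in the number of cells that express a gene and a drop in RNA per cell cannot be told apart in whole spleen.

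**Figure D1:**
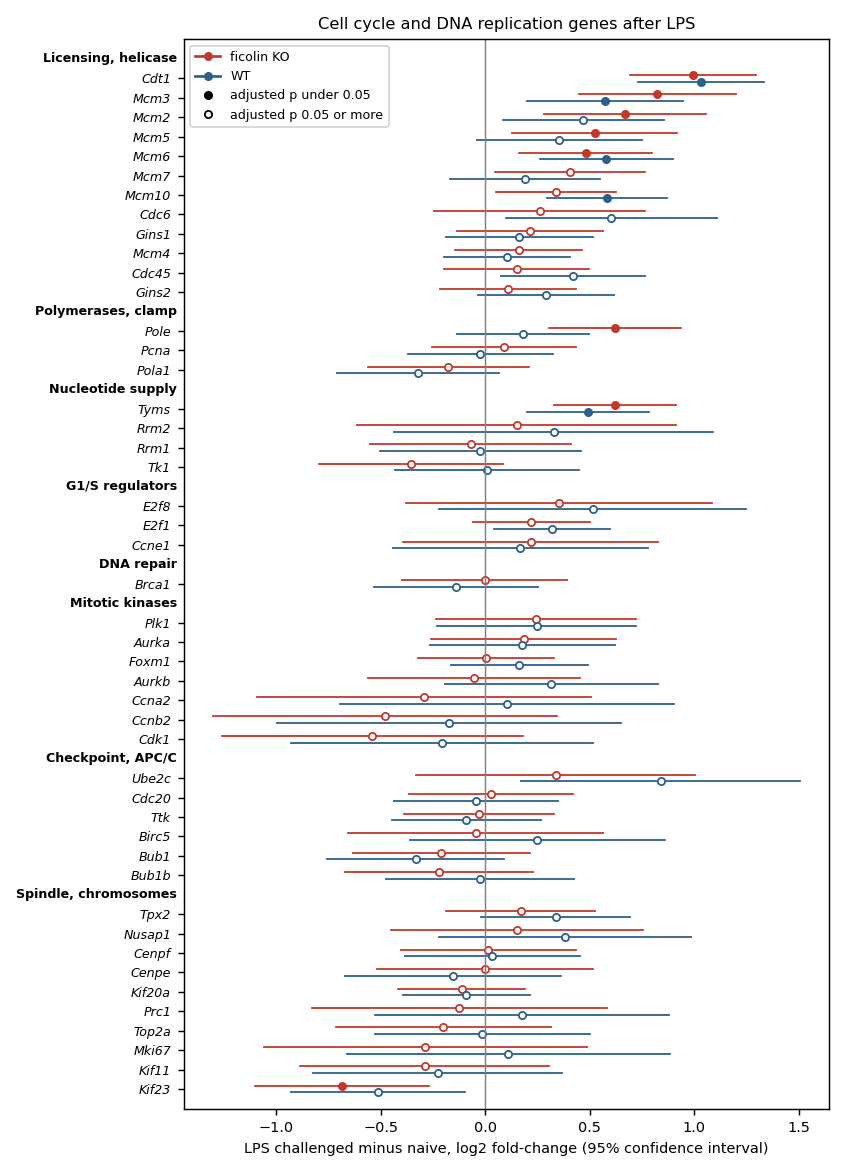
Log2 fold-change of LPS challenged over naive mice for the 46 genes, by role, with 95% confidence intervals from limma (3 mice per group), ficolin KO in red above WT in blue, filled where adjusted p was under 0.05. All 12 licensing and helicase genes lay above 0 in both genotypes, and the mitosis genes lay on both sides.

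The 12 genes of licensing and the helicase had positive fold-changes in both genotypes. Their median log2 fold-change was 0.37 in ficolin KO and 0.45 in WT mice, beside -0.01 and 0.01 over all genes. In ficolin KO mice 5 of the 12 rose (Cdt1, Mcm2, Mcm3, Mcm5, Mcm6), and in WT mice 4 (Cdt1, Mcm3, Mcm6, Mcm10), beside the 12.9% and 13.4% of all genes that rose. In ficolin KO mice a list of exocrine pancreas genes, foreign to spleen, was lower on every LPS challenged array than on every naive array. With its mean as a covariate, chosen after seeing the data, only Cdt1 of these 5 passed. That mean itself separated LPS challenged from naive arrays there, so the loss of calls cannot show whether the rises depend on it. The share of all genes that passed with this covariate is not given here. Over 24 alternatives, that fit among them, the log2 fold-changes of the 5 genes stayed at 0.31 or more in ficolin KO mice. Cdt1, the loader that brings the Mcm ring to origins, changed most. It had 7.90, 8.14 and 7.85 in LPS challenged and 6.78, 6.99 and 7.14 in naive ficolin KO mice, and 8.10, 8.06 and 7.98 in LPS challenged and 7.27, 6.78 and 6.99 in naive WT mice. Every LPS challenged array thus lay above every naive array of either genotype. The log2 fold-change was 0.99 (SE 0.14, adjusted p = 5.96e-05, limma) in ficolin KO mice, a fold-change of 1.99, and 1.03 (adjusted p = 3.97e-05) in WT mice, a fold-change of 2.05. Cdc6, which acts with Cdt1, did not pass, at 0.26 (95% CI -0.24 to 0.76) in ficolin KO and 0.60 (95% CI 0.10 to 1.11, adjusted p = 0.0684) in WT mice.

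Of the Mcm ring itself, Mcm3 had 7.49, 7.25 and 7.46 in LPS challenged and 6.29, 6.55 and 6.89 in naive ficolin KO mice, which gave 0.82 on the log2 scale (SE 0.18, adjusted p = 0.00199, limma). In WT mice it had 6.98, 7.52 and 7.03 after LPS and 6.84, 6.46 and 6.51 in the naive state, a log2 fold-change of 0.57 (adjusted p = 0.0212). Neither genotype's groups overlapped for Mcm3. Mcm6 had 8.43, 8.50 and 8.78 in LPS challenged and 7.92, 8.08 and 8.27 in naive ficolin KO mice, against 8.35, 8.77 and 8.51 in LPS challenged and 8.18, 7.81 and 7.90 in naive WT mice. It too separated LPS challenged from naive arrays in both genotypes, with log2 fold-changes of 0.48 (adjusted p = 0.0249) and 0.58 (adjusted p = 0.00759). Mcm2 rose in ficolin KO mice, with 8.20, 7.90 and 8.01 after LPS and 7.01, 7.47 and 7.62 in naive mice, a log2 fold-change of 0.67 (adjusted p = 0.0108). In WT mice its groups overlapped at 0.47 (95% CI 0.08 to 0.86, adjusted p = 0.0645).

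Mcm5 was the least stable of these, with 7.41, 7.26 and 7.53 in LPS challenged and 6.45, 6.81 and 7.37 in naive ficolin KO mice and a log2 fold-change of 0.52 (adjusted p = 0.0471). Naive replicate 3 lay within the range of the LPS challenged arrays, and 15 of 24 alternative settings ended the call. Mcm4 was the ring subunit with the smallest difference, at 0.16 (95% CI -0.14 to 0.46) in ficolin KO and 0.10 (95% CI -0.20 to 0.41) in WT mice. Mcm7 stood at 0.41 (95% CI 0.05 to 0.77, adjusted p = 0.0909) in ficolin KO and 0.19 in WT mice. Mcm10, which helps to activate the loaded helicase, had 5.32, 5.62 and 5.59 in LPS challenged and 5.02, 4.75 and 5.01 in naive WT mice, a rise of 0.58 (adjusted p = 0.00342). In ficolin KO mice it had 5.17, 5.21 and 5.42 after LPS and 4.93, 4.75 and 5.10 in the naive state. Those groups did not overlap either, but the log2 fold-change of 0.34 (95% CI 0.05 to 0.63) had adjusted p = 0.0755. Cdc45 and the GINS subunits Gins1 and Gins2, which complete the active helicase, ranged from 0.11 to 0.42 over both genotypes and did not pass. Without naive ficolin KO replicate 1, the array with the lowest licensing mean, Mcm2 and Mcm6 did not pass in ficolin KO mice (adjusted p = 0.0648 and 0.11). Mcm2 was also lost without LPS challenged ficolin KO replicate 1, Mcm6 without LPS challenged replicate 3 or naive replicate 2 of ficolin KO mice, and Mcm3 in WT mice without LPS challenged replicate 2 or naive replicate 2 or 3.

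Promoters of these genes are known for binding sites of E2F factors, and they are shown because the licensing genes moved one way. RefSeq promoter sequences of the mouse build GRCm38.p6, from 250 bases before to 50 bases after the gene start, were found for 37 of the 46 genes, in 39 windows of 300 bases. The letters TTTCCCGC, TTTGGCGC or TTTCGCGC, searched on both strands as E2F-type sites, stood in 6 of the 10 windows of 9 licensing and helicase genes (60.0%), compared with 1.84% of 32851 mouse promoters. The genes were Cdc6, Cdt1, Mcm3, Mcm5, Mcm6 and Mcm7. In Cdt1 and Mcm3 the letters lay only after the gene start, and the windows of Mcm2, Mcm10 and Cdc45 held none. The 3 stretches below end before the gene start and run 5′ to 3′ on the strand of the gene, and capitals mark E2F-type letters and the CCAAT box (CCAAT or ATTGG). They lie at chr1:128359706-128359835 on the minus strand for Mcm6, chr8:75109339-75109468 on the plus strand for Mcm5 and chr11:98907991-98908120 on the plus strand for Cdc6.
Mcm6: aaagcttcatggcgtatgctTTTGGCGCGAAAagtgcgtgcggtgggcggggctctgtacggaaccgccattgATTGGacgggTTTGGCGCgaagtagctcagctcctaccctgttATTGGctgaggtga
Mcm5: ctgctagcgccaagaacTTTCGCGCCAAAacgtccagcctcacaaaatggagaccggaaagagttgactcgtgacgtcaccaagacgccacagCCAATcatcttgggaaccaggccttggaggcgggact
Cdc6: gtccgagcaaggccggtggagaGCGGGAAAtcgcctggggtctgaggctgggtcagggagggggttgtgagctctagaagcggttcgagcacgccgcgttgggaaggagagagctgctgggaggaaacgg
In Mcm6 the E2F-type letters began at -110, -106 and -47 relative to the gene start, and the matches at -110 and -106 overlap on opposite strands. In Mcm5 a pair overlaps in the same way at -153 and -149. In Cdc6 the only match began at -138. These are matches of letters and say nothing of binding in these spleens.

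Among the enzymes of DNA synthesis, Tyms, the thymidylate synthase that makes dTMP, rose in both genotypes. It had 6.92, 7.29 and 7.02 in LPS challenged and 6.41, 6.39 and 6.57 in naive ficolin KO mice, and 7.31, 7.10 and 7.11 in LPS challenged and 6.75, 6.85 and 6.44 in naive WT mice. The groups did not overlap in either genotype, and the log2 fold-changes were 0.62 (SE 0.14, adjusted p = 0.00256, limma) and 0.49 (adjusted p = 0.0119). Without LPS challenged WT replicate 1 or naive WT replicate 3 the adjusted p in WT mice was 0.0555 and 0.0616. Pole, the catalytic subunit of the leading-strand polymerase, rose in ficolin KO mice, with 6.24, 6.02 and 6.17 after LPS and 5.46, 5.45 and 5.66 in the naive state, a log2 fold-change of 0.62 (adjusted p = 0.00451). In WT mice it had 5.69, 5.83 and 5.88 after LPS and 5.92, 5.66 and 5.28 in the naive state, which overlapped, with 0.18 (95% CI -0.13 to 0.49). A second Pole probe set, whose mean of 3.35 lay under the median of every array, gave -0.34 in ficolin KO and 0.39 in WT mice, neither of which passed. With both probe sets averaged, the value in ficolin KO mice was 0.14 (adjusted p = 0.46).

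The other synthesis genes did not pass in either genotype. Pcna, the sliding clamp, stood at 0.09 (95% CI -0.26 to 0.44) in ficolin KO and -0.02 (95% CI -0.37 to 0.32) in WT mice, and Pola1, of the primase complex, at -0.18 and -0.32. The ribonucleotide reductase subunit Rrm1 stood at -0.07 and -0.02, and Rrm2, its S phase partner, at 0.15 and 0.33. The interval of Rrm2 was wide (95% CI -0.61 to 0.91 in ficolin KO mice), since its arrays of LPS challenged ficolin KO mice spread over 5.89, 5.60 and 7.13. The salvage enzyme Tk1 stood at -0.36 (95% CI -0.80 to 0.08) and 0.01. The 3 regulators of the G1/S transition, E2f1, E2f8 and cyclin E1 (Ccne1), had positive log2 fold-changes of 0.22 to 0.35 in ficolin KO mice and 0.17 to 0.51 in WT mice, and none passed. E2f1 came nearest, at 0.32 in WT mice (95% CI 0.04 to 0.60, adjusted p = 0.0812), where its arrays did not overlap. Brca1, of homologous recombination repair, stood at 0.00 in ficolin KO and -0.14 in WT mice.

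**Figure D2:**
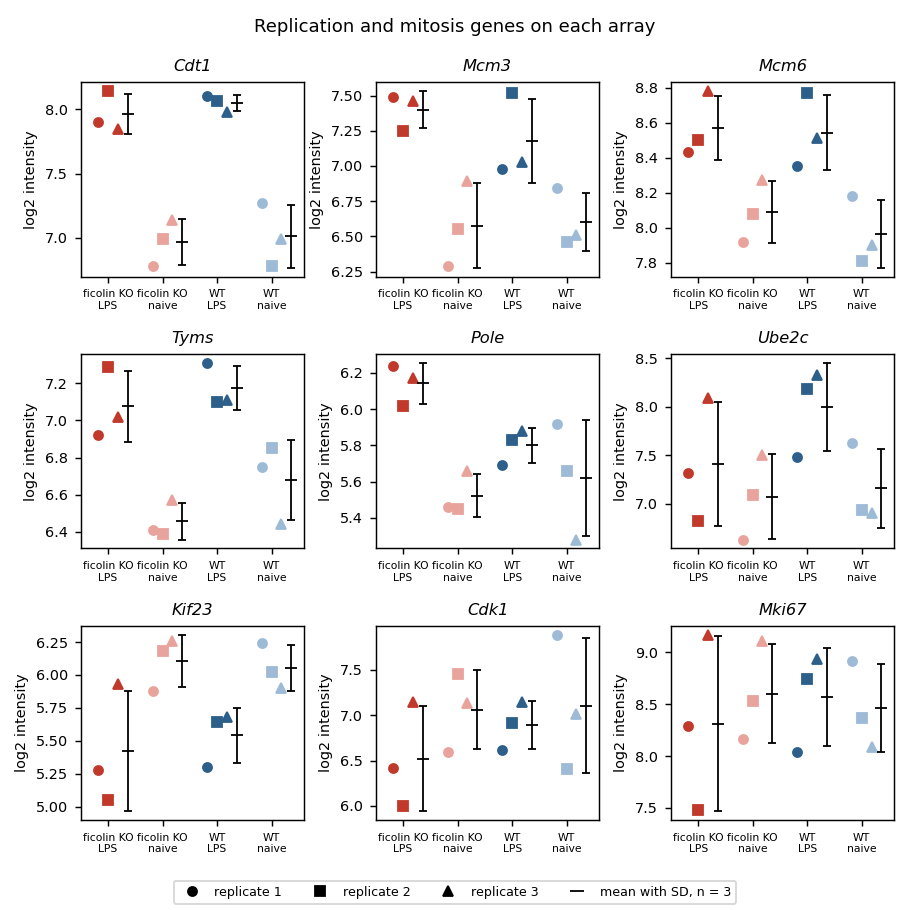
Log2 intensity of 9 genes on each of the 12 arrays, with the mean and SD of each group of 3 mice beside the points and a marker shape for each replicate number. LPS challenged and naive arrays separate for Cdt1, Mcm3, Mcm6 and Tyms in both genotypes, whereas for Cdk1 and Mki67 the groups overlap and the arrays within a group spread over more than 0.5.

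For the 23 mitosis genes the median log2 fold-change was -0.05 in ficolin KO mice, with 8 above 0, and 0.03 in WT mice, with 12 above 0. Of the 23, 0 rose and 1 fell in ficolin KO mice, and 0 rose and 0 fell in WT mice, where 13.4% and 16.7% of all genes did so (limma). At unadjusted p under 0.05 Kif23 was lower and no other gene of the 23 passed in ficolin KO mice, where 16.7% of all genes were higher and 19.4% lower, while in WT mice Kif23 was lower and Ube2c higher (17.6% of all genes higher, 20.9% lower). Kif23, a kinesin of the central spindle needed for cytokinesis, had 5.28, 5.05 and 5.93 in LPS challenged and 5.88, 6.18 and 6.26 in naive ficolin KO mice. It fell by 0.69 on the log2 scale there (SE 0.20, adjusted p = 0.0148), although LPS challenged replicate 3 lay above the lowest naive array. In WT mice it had 5.30, 5.64 and 5.68 after LPS and 6.24, 6.02 and 5.90 in the naive state, with no overlap and a log2 fold-change of -0.51 (adjusted p = 0.0614). Leaving out LPS challenged replicate 1 or 2, or naive replicate 2 or 3, of ficolin KO mice ended its call there, with adjusted p of 0.0615, 0.0867, 0.0517 and 0.0593.

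Of the mitotic kinases and cyclins, Cdk1, the kinase that drives entry into mitosis, had 6.42, 6.00 and 7.15 in LPS challenged and 6.59, 7.46 and 7.14 in naive ficolin KO mice, and 6.62, 6.92 and 7.15 in LPS challenged and 7.89, 6.41 and 7.01 in naive WT mice. All 4 groups overlapped, and the log2 fold-changes were -0.54 (95% CI -1.26 to 0.18) and -0.21 (95% CI -0.93 to 0.51). Its partners cyclin A2 (Ccna2) and cyclin B2 (Ccnb2) stood at -0.29 and -0.48 in ficolin KO and 0.10 and -0.17 in WT mice. Plk1, Aurka and Aurkb, kinases of the centrosome and chromosomes, ranged from -0.05 to 0.24 and from 0.18 to 0.32. Foxm1, the transcription factor of the G2/M genes, had the smallest residual spread of this role (SD 0.20) and stood at 0.00 (95% CI -0.32 to 0.33) and 0.16 (95% CI -0.16 to 0.49).

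Of the spindle checkpoint and the anaphase-promoting complex, Ube2c, the ubiquitin-conjugating enzyme of that complex, had the largest positive value of the mitosis genes. It had 7.32, 6.82 and 8.09 in LPS challenged and 6.63, 7.09 and 7.50 in naive ficolin KO mice, and 7.48, 8.18 and 8.33 in LPS challenged and 7.63, 6.94 and 6.90 in naive WT mice. The groups overlapped, at 0.34 (SE 0.31) in ficolin KO and 0.84 (95% CI 0.17 to 1.51, adjusted p = 0.0553) in WT mice. Without LPS challenged WT replicate 1 or naive WT replicate 1 the value in WT mice was 1.10 and 1.08, and Ube2c then met the criteria. Cdc20, which activates the same complex, stood at 0.03 and -0.04, the checkpoint kinases Bub1, Bub1b and Ttk at -0.22 to -0.03 and -0.33 to -0.03, and Birc5 (survivin) at -0.05 and 0.25. Of the spindle and chromosome genes besides Kif23, the proliferation marker Mki67 had 8.29, 7.48 and 9.17 in LPS challenged and 8.16, 8.53 and 9.11 in naive ficolin KO mice, a log2 fold-change of -0.29 (95% CI -1.06 to 0.49). In WT mice it had 8.04, 8.74 and 8.93 after LPS and 8.92, 8.37 and 8.09 in the naive state, a value of 0.11 (95% CI -0.66 to 0.88). Top2a, the topoisomerase that untangles chromosomes, stood at -0.20 and -0.01, the spindle motor Kif11 at -0.29 and -0.23, and Nusap1, Tpx2, Prc1, Cenpe, Cenpf and Kif20a between -0.15 and 0.38.

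Mitotic promoters are known for the cell cycle homology region, or CHR, bound by the MuvB complex, and for CCAAT boxes bound by NF-Y, and they are shown to set them beside the licensing promoters. CHR letters, TTTGAA or TTCGAA on either strand, stood in 16 of the 19 windows of 18 mitosis genes (84.2%), in 3 of the 10 licensing and helicase windows (30.0%) and in 19.2% of all promoters. CCAAT boxes stood in 17 of the 19 mitosis windows (89.5%), 8 of the 10 licensing windows (80.0%) and 37.4% of all promoters. E2F-type letters stood in 1 mitosis window, that of Cdk1. The stretches end before the gene start, with CCAAT boxes, CHR letters and the E2F-type letters in capitals. They lie at chr10:69352913-69353052 on the minus strand for Cdk1, chr11:99024190-99024339 on the minus strand for Top2a, chr2:164769799-164769928 on the plus strand for Ube2c and chr4:118437344-118437473 on the minus strand for Cdc20.
Cdk1: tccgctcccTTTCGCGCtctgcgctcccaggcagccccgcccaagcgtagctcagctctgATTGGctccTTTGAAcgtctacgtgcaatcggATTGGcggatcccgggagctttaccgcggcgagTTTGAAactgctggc
Top2a: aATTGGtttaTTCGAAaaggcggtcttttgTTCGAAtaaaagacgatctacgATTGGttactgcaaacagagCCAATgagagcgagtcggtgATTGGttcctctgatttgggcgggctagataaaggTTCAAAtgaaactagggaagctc
Ube2c: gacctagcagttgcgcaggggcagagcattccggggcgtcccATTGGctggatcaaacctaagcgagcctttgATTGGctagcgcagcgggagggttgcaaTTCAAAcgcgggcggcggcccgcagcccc
Cdc20: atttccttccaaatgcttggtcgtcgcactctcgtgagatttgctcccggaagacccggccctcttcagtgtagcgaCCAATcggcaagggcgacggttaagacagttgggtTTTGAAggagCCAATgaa
CHR letters began at -71 and -15 in Cdk1, at -140, -120 and -23 in Top2a, at -29 in Ube2c and at -18 in Cdc20. The Cdk1 stretch also holds E2F-type letters at -131. Kif23, which fell, carried CHR letters at 3, just after its gene start, and the windows of Birc5, Cenpe and Nusap1 held none.

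The mitosis genes varied more between mice of 1 group than most genes did. The residual SD within groups had a median of 0.362 over the 23 mitosis genes, 0.220 over the 12 licensing and helicase genes and 0.174 over all genes, and all 23 lay above the last value. The mice that were high or low were the same from gene to gene. Replicate 3 of the LPS challenged ficolin KO mice was the highest of its group in 23 of 23 mitosis genes, where 31.1% of all genes had it highest. Replicate 1 of the LPS challenged WT mice was the lowest in 23 of 23, replicate 3 of the naive ficolin KO mice the highest in 21 and replicate 1 of the naive WT mice the highest in 20.

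A list of 18 erythroid genes included Klf1 and the membrane protein Slc4a1. Its mean put the mice of every group in the same order as the mean of the 23 mitosis genes. The mean of 12 neutrophil precursor genes gave that order in the naive mice of each genotype, but not in the LPS challenged mice. The part of either list in the spread of the mitosis genes was not tested. The mitosis mean was 5.92, 5.62 and 6.55 in LPS challenged and 5.85, 6.13 and 6.43 in naive ficolin KO mice, and 5.81, 6.27 and 6.34 in LPS challenged and 6.40, 5.95 and 5.90 in naive WT mice. The erythroid mean was 6.85, 6.23 and 7.89 in LPS challenged and 6.08, 6.93 and 7.48 in naive ficolin KO mice, and 7.02, 7.74 and 7.92 in LPS challenged and 7.95, 6.79 and 6.01 in naive WT mice. Of the erythroid genes 0 passed in ficolin KO mice and 1 rose in WT mice, with group means of the list of 6.99 ± 0.84 and 6.83 ± 0.71 in LPS challenged and naive ficolin KO mice and 7.56 ± 0.47 and 6.92 ± 0.97 in LPS challenged and naive WT mice (SD, n = 3 each). With the erythroid mean of each array as a covariate, chosen after seeing the data, 8 of the 46 genes rose and 4 fell in ficolin KO mice, among them Cdk1 (-0.63), Ccnb2 (-0.60), Kif23 (-0.74) and Tk1 (-0.41). In WT mice 5 rose, among them the mitosis gene Ube2c (0.45, adjusted p = 0.0363, limma). Mcm3 did not pass there (0.43, adjusted p = 0.0522). The 4 that fell in WT mice were Ccnb2 (-0.65), Bub1 (-0.51), Kif11 (-0.55) and Kif23 (-0.73). Of all genes 28.1% passed in ficolin KO and 28.9% in WT mice. The median of the mitosis genes in that fit was -0.13 in ficolin KO and -0.22 in WT mice, and that of the licensing genes 0.34 and 0.32.

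The gap between the licensing genes and the mitosis genes differed between LPS challenged and naive mice, which were different animals. The mean of the 12 licensing and helicase genes on an array, relative to its mean over the 12 arrays, minus the same for the 23 mitosis genes was 0.35, 0.59 and -0.11 in LPS challenged and -0.23, -0.22 and -0.32 in naive ficolin KO mice. In WT mice it was 0.37, 0.18 and 0.02 after LPS and -0.29, -0.21 and -0.11 in the naive state. Every LPS challenged mouse lay above every naive mouse of its genotype. The lowest LPS challenged values belonged to the mice with the highest erythroid means of their groups. This difference is a description of genes chosen by role, with no test.

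**Figure D3:**
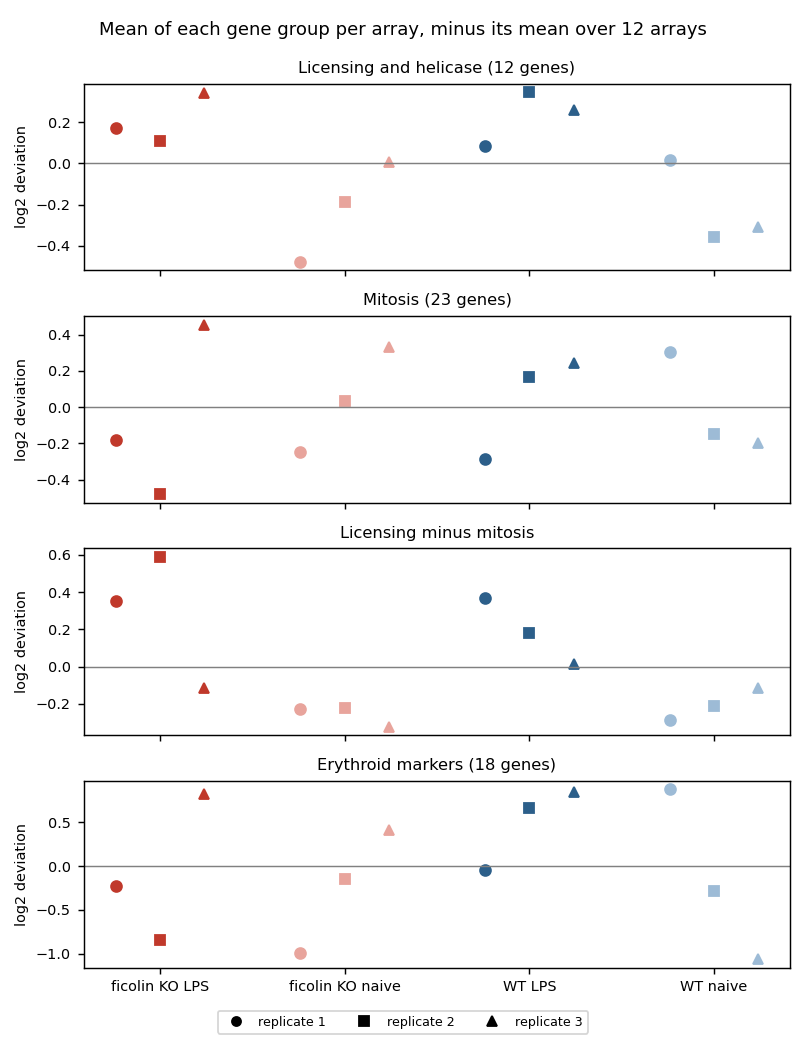
Mean log2 intensity per array of the licensing and helicase genes, the mitosis genes, their difference and the erythroid genes, each relative to its mean over the 12 arrays, with a point per mouse and a shape per replicate number. Licensing minus mitosis is higher on all LPS challenged arrays than on the naive arrays of the same genotype. Within each group the order of mice in the mitosis panel is that of the erythroid panel.

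Between genotypes none of the 46 genes met the criteria. In LPS challenged mice 0 of 46 met them, where 0.46% of all genes did, and in naive mice 0 of 46, where 0.185% did. At unadjusted p under 0.05 (limma) 1 gene passed in LPS challenged mice and 0 in naive mice, where 5.18% and 2.85% of all genes did. That gene was Pole, 0.34 higher in ficolin KO mice (95% CI 0.03 to 0.66, adjusted p = 0.93), with 6.24, 6.02 and 6.17 in ficolin KO and 5.69, 5.83 and 5.88 in WT mice, but its dim second probe set pointed the other way at -0.59. The largest negative value in LPS challenged mice was that of Ube2c, at -0.59 (95% CI -1.25 to 0.08). In naive mice all 46 values lay between -0.29 (Mcm7) and 0.24 (Tpx2). The LPS responses of the genotypes differed for 0 of the 46 genes, with 0 also at unadjusted p under 0.05, where 2 of all genes (0.00902%) differed at adjusted and 3.53% at unadjusted p under 0.05. The widest difference of responses was that of Ube2c, at -0.50 (95% CI -1.45 to 0.44), so a difference of this size between the genotypes was not detectable for the most variable genes.

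The count for LPS challenged mice moved when single mice were left out. Without LPS challenged ficolin KO replicate 3, the mouse high in all mitosis genes, 5 genes met the criteria as lower in ficolin KO mice, which were Ccna2 (-0.90), Ccnb2 (-0.94), Ube2c (-0.93), Rrm2 (-0.78) and Tk1 (-0.64), at adjusted p of 0.789 or more. Without LPS challenged WT replicate 1, the mouse low in all mitosis genes, 1 did, Ube2c (-0.85). The share of all genes that met the criteria in these fits is not given here. Whether the genes named stood out from genes at large in them was therefore not tested. The remaining ficolin KO mice of the first case had erythroid means of 6.85 and 6.23, against 7.02 to 7.92 in WT mice, and the part of this in the result was not tested.

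Further G1 regulators included genes with much larger fold-changes. Of 25 such genes, 4 met the criteria as higher and 2 as lower in ficolin KO mice, where 4.22% and 4.41% of all genes did. In WT mice 5 were higher and 2 lower, where 4.05% and 4.94% of all genes were. Myc, the transcription factor that drives growth and G1 entry, had 10.68, 10.77 and 10.16 in LPS challenged and 7.88, 7.86 and 7.99 in naive ficolin KO mice, which gave 2.63 on the log2 scale (SE 0.15, adjusted p = 6.68e-09, limma). In WT mice it had 10.64, 10.35 and 10.28 after LPS and 7.83, 7.85 and 7.89 in the naive state, a value of 2.57. Cyclin D2 (Ccnd2) rose by 2.07 and 1.94, its kinase Cdk6 by 1.29 and 1.19. Mybl2, the B-Myb partner of MuvB, rose with fold-changes of 3.38 and 2.83 on the brighter of its 2 probe sets. Values of its other probe set are not given here. Cdc25a, the phosphatase that activates Cdk2, rose by 0.94 and 1.05. Rbl2, the pocket protein p130 that holds E2F targets silent in resting cells, fell by 1.62 on the log2 scale in ficolin KO mice and by 1.79 in WT mice. Skp2, the ubiquitin ligase subunit that degrades the inhibitor p27, fell by 1.30 and 1.15.

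Inhibitors of cyclin-dependent kinases and targets of p53 changed in both directions. Of 17 such genes, 4 met the criteria as higher and 2 as lower in each genotype, beside 4.22% higher and 4.41% lower of all genes in ficolin KO and 4.05% and 4.94% in WT mice. Cdkn1a, which encodes the inhibitor p21, had 9.90, 9.26 and 9.04 in LPS challenged and 6.43, 6.75 and 6.45 in naive ficolin KO mice, which gave 2.86 on the log2 scale (SE 0.19, adjusted p = 3.14e-08, limma), and rose by 3.01 in WT mice. The stress genes Gadd45b, Sesn2 and Gadd45g rose by 2.53, 2.00 and 1.83 in ficolin KO mice and by 2.50, 2.03 and 2.22 in WT mice. Btg2 and Sesn1 fell by 1.32 and 1.11 in ficolin KO mice and by 1.02 and 1.12 in WT mice. Cdkn1b, the inhibitor p27, fell by 0.69 and 0.71 and did not reach the criteria. Of 41 other replication genes 1 met the criteria as higher (the polymerase delta subunit Pold2, with fold-changes of 2.80 and 2.41) and 1 as lower (the origin recognition subunit Orc5, with fold-changes of 0.499 and 0.473) in each genotype. At adjusted p under 0.05, 9 of the 41 rose and 7 fell in ficolin KO mice, where 12.9% of all genes rose and 14.9% fell, and 10 rose and 9 fell in WT mice, where 13.4% rose and 16.7% fell. These genes thus had no common direction. Of 44 other mitosis genes 1, the condensin subunit Smc4, met the criteria, as lower (-1.01 and -1.24), and of 20 other DNA repair genes 1, Rmi2, did in WT mice (1.10). At adjusted p under 0.05, 2 of these 44 mitosis genes rose and 1 fell in both genotypes. Of all genes 10.6% rose in both, and the share that fell in both is not given here. Between genotypes in LPS challenged mice Cep55, of cytokinesis, was higher in ficolin KO mice (0.64, 95% CI 0.22 to 1.06) and the inhibitor Cdkn2c lower (-0.62, 95% CI -1.18 to -0.06). Both met the criteria for genotype, at adjusted p of 0.922 or more.

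**Figure D4:**
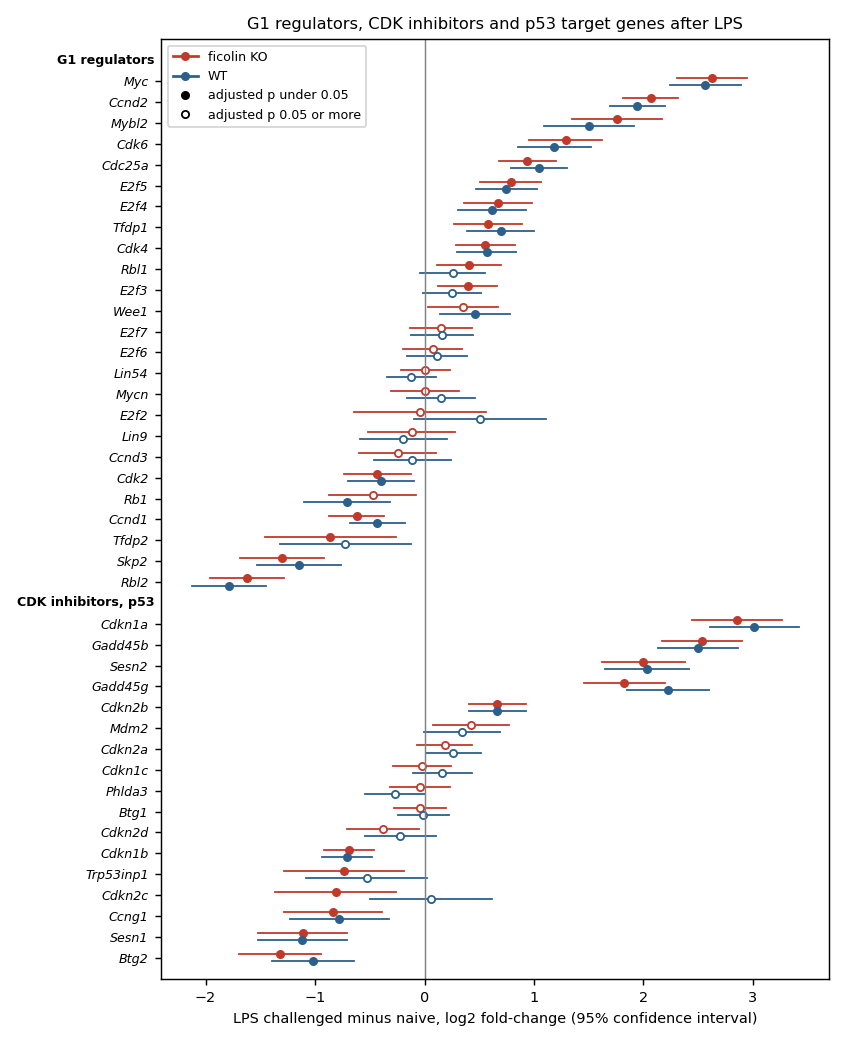
Log2 fold-change of LPS challenged over naive mice for 25 G1 regulators and for 17 inhibitors of cyclin-dependent kinases and p53 targets, with 95% confidence intervals from limma (3 mice per group), ficolin KO in red above WT in blue. Myc and Cdkn1a stand furthest to the right in their groups in both genotypes, and Rbl2 and Btg2 are among the lowest.

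Markers of the cells of the spleen moved with LPS as well. The mean of 12 B cell genes was 8.25 to 8.35 in LPS challenged and 9.75 to 9.95 in naive ficolin KO mice. In WT mice it was 8.19 to 8.35 after LPS and 9.70 to 9.94 in the naive state. The spleen label itself was not tested. Of the 12 B cell genes, 9 met the criteria as lower in ficolin KO and 8 in WT mice. So did 7 and 5 of 9 T cell genes and 9 and 8 of 12 genes of red pulp macrophages. Of all genes 4.41% were lower by the criteria in ficolin KO and 4.94% in WT mice. The list of 10 exocrine pancreas genes had means of 4.13, 6.85 and 8.73 in LPS challenged and 11.03, 9.46 and 10.02 in naive ficolin KO mice, and 9.23, 10.39 and 11.32 in LPS challenged and 8.65, 10.50 and 9.75 in naive WT mice. With its mean as a covariate, only Cdt1 (0.81) passed adjusted p under 0.05 among the 46 genes in ficolin KO mice, while in WT mice 6 rose and 1 fell. The share of all genes that passed in that fit is not given here, so these counts have no such comparison. In ficolin KO mice the pancreas mean separated LPS challenged from naive arrays, so the loss of calls cannot show whether the changes depend on it. The part of the B cell, T cell and macrophage markers in the changes of the replication genes was not tested.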

How the data were processed

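Total RNA of 12 spleens, 1 array per mouse, was measured on Affymetrix Mouse Gene 2.0 ST arrays. The authors normalized raw intensities by quantiles and summarised them by robust multi-array average (RMA) with Qlucore Omics Explorer. What they deposited are log2 intensities of 41345 probe sets, of which 23521 carried 1 gene symbol, while 1820 with several symbols and 16004 with none were left out. This gave 22180 genes, with no filter on dim genes. Array medians lay between 4.17 and 4.27, and no 2 arrays were identical. The number of arrays limits the precision.

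Groups came from the sample labels. Means of the 4 groups were fitted to all 12 arrays (limma 3.58.1, R 4.3.3, 8 residual and 6.67 prior degrees of freedom), and Benjamini-Hochberg adjustment ran over the 22180 genes. All p-values and 95% intervals in the text come from limma's moderated variances. The script was tested on simulated data. An exact permutation test of 3 against 3 mice cannot give a p under 0.1. Comparisons that use the same group share its arrays.

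The genes and all lists were chosen with earlier results of these data known. Array values are given for genes that passed in some comparison, for the largest changes of each list and for a few genes that did not pass. Lists of germinal centre B cells, plasma cells, neutrophil precursors, and megakaryocytes and platelets had 1, 2, 1 and 0 genes called after LPS in ficolin KO mice, and 1, 4, 2 and 0 in WT mice, of 6, 8, 12 and 9 measured. Of all genes 8.63% were called in ficolin KO and 8.99% in WT mice. Alternatives were a separate fit for each pair of groups, the same by ordinary least squares, trended and robust variances, array weights, dim genes left out, all probe sets, averaged probe sets, array medians subtracted, a further quantile normalization, no criterion on the fold-change, a replicate block and each array left out. Covariates for the erythroid and the exocrine pancreas list were added after seeing the data. Promoter sequences are those of RefSeq on GRCm38.p6, and the build behind the array annotation is not given in the sources used here.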

Additional observations from a re-analysis of the deposited data

How the results depend on the processing

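Cdt1 kept its direction and an adjusted p under 0.05 in 24 of 24 alternatives in both genotypes, and no called gene changed direction. By the criteria the count of the 46 genes after LPS in ficolin KO mice, 0 as reported, was 1 with array weights, 1 with array medians subtracted and 8 with no criterion on the fold-change, and 0 to 1 when single arrays were left out (1 without LPS challenged replicate 1 or 3 or naive replicate 2 or 3 of ficolin KO mice). In WT mice, where it was 1, it was 0 with array weights, 5 with no criterion on the fold-change, 0 with the erythroid covariate and 0 to 2 without single arrays (0 without naive WT replicate 2, and 2 without LPS challenged or naive WT replicate 1). The count at adjusted p under 0.05 in ficolin KO mice, 8 as reported, was 3 with ordinary least squares, 1 with the exocrine pancreas covariate and 5 to 8 without single arrays (5 without LPS challenged replicate 1 or naive replicate 1 or 2 of ficolin KO mice). In WT mice, where it was 5, it was 8 with a separate fit for each pair of groups, 2 with ordinary least squares, 11 with dim genes left out, 10 with array medians subtracted, 8 with a further quantile normalization, 9 with the erythroid covariate and 4 to 9 without single arrays (8 without naive ficolin KO replicate 1 and 9 without naive WT replicate 1). Between genotypes in LPS challenged mice the count of 0 was 1 with array weights (Ube2c, lower), 1 with the exocrine pancreas covariate (Ttk, higher) and 0 to 5 without single arrays. The causes of these shifts were not tested. Shares of all genes called in the fits without single arrays are not given here, so the counts of those fits have no such comparison. The other cell cycle lists held 44, 41, 25, 17 and 20 measured genes. Of these 15 were called after LPS in ficolin KO and 17 in WT mice, beside 8.63% and 8.99% of all genes. With no criterion on the fold-change 57 and 52 were called, beside 27.7% and 30.1% of all genes.

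Over all groups together, replicate numbers showed no pairing of the samples. Deviations of same-numbered arrays had correlations of -0.22 to 0.25 (median -0.05) over 18 pairs, and 2 were over 0.1. Different-numbered arrays had -0.23 to 0.21 (median 0.02) over 36 pairs, and 4 were over 0.1. The 2 same-numbered pairs joined LPS challenged ficolin KO and WT mice, at 0.16 for replicate 1 and 0.25 for replicate 3, beside -0.01 for replicate 2. With the replicate number as a block 7 genes passed adjusted p under 0.05 in ficolin KO and 6 in WT mice, and 0 and 1 met the criteria after LPS. The shares of all genes in that fit are not given here. The block ended the call of Mcm5 in ficolin KO mice. Within groups the mitosis genes had a median residual SD of 0.362, beside 0.174 over all genes.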
